A study of Mus musculus with 6 samples.

Results

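The organic anion transporting polypeptides, encoded by the Slco genes, and the organic anion, cation and carnitine carriers, encoded by the Slc22a genes, were examined in the RNA-Seq of WT and Vps15LKO liver. The members were the protein-coding mouse genes whose symbol begins with Slco or Slc22a followed by a digit, which gave 39 genes (14 Slco and 25 Slc22a) of the 56305 genes in the table. Another 2 matching symbols were not protein-coding and were left out. Vps15LKO mice carry floxed Vps15 alleles recombined by Cre under the albumin promoter, which is active in hepatocytes. Which other liver cells keep the gene is not given in the sources used here. Vps15 is the regulatory subunit of the class 3 PI3K that acts in autophagy and endosomal sorting. The WT group and the Vps15LKO group held 3 livers each, all from male mice of 5 weeks fed ad libitum and taken at ZT6, with 1 library per liver. The labels give the control genotype as WT without naming its Cre or floxed alleles.

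Hepatocytes take up bile acids, bilirubin, hormones and drugs from the blood through carriers on their sinusoidal side. The Slco products (Oatps) carry large organic anions in exchange for other anions, and the Slc22a products carry smaller organic anions, organic cations, or carnitine. Inside the cell these substrates are conjugated or used, and export pumps of the ABC family move the products into bile or back to the blood. Several mouse members are clustered, the Oatp1 genes on chromosome 6 and a group of organic anion carrier genes on chromosome 19.

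The values are normalized counts, which are read counts divided by 1 size factor per library. The libraries held between 16137093 and 18110223 counted reads, and the size factors were 0.742 to 0.801 for WT but 1.23 to 1.41 for Vps15LKO livers. Equal portions of the reads thus give a lower value in a Vps15LKO liver, and when total reads were used for scaling the median log2 fold change over the tested genes went from -0.02 to 0.70. The test was limma on log2(normalized count + 1) for genes reaching 20 normalized counts in 3 or more livers, with calls made where the Benjamini-Hochberg adjusted p was under 0.05 and the fold 1.2 or more. Folds and standard errors are on this log2 scale, which understates changes of low genes. Pik3r4, which encodes Vps15, had 508, 573 and 460 normalized counts in WT against 341, 362 and 355 in Vps15LKO livers, a log2 fold change of -0.54 that became 0.19 under total-read scaling. The paper reports that the recombined locus still yields a truncated Vps15 protein, so counts over the whole gene do not measure the deletion. The 12 hepatocyte markers had sums of 3076110 to 3515410 normalized counts across the WT livers, but of 853564 to 1298270 across the Vps15LKO livers. Of these markers 11 were called lower, beside 33.0% of all tested genes, and 11 under total-read scaling, beside 11.1%. In these bulk samples, fewer hepatocytes and less RNA of a gene per hepatocyte cannot be told apart.

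The members with the deepest falls lie in both gene clusters, and the 250 bases before their RefSeq start sites (GRCm38.p6) are shown because neighbours in each cluster differed in their response. The windows of Slc22a28 (chr19:8131983-8132232, minus strand) and Slc22a30 (chr19:8405106-8405355, minus strand) are written with the bases that differ or do not align between them in capitals.
Slc22a28: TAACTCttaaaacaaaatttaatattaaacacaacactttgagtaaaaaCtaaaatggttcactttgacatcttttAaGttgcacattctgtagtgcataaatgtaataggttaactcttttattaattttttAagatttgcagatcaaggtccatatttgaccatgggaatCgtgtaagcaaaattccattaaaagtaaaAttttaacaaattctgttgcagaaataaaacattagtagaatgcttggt
Slc22a30: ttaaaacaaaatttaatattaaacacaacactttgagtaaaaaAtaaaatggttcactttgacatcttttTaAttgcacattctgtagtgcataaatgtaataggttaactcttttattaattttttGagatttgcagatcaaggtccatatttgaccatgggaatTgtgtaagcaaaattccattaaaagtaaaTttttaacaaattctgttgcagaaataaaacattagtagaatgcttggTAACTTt
These windows were identical at 238 of 250 bases (95.2%), against 70% between either of them and the window of Slc22a29, 64% and 65.2% with that of Slc22a19, and 50% to 58% with those of Slc22a26 and Slc22a27 in the same cluster. The windows of Slco1b2 (chr6:141629268-141629517, plus strand) and Slco1a1 (chr6:141946963-141947212, minus strand) belong to the Oatp1 genes with the most reads in WT liver, and capitals mark matches to the 4 searched motifs.
Slco1b2: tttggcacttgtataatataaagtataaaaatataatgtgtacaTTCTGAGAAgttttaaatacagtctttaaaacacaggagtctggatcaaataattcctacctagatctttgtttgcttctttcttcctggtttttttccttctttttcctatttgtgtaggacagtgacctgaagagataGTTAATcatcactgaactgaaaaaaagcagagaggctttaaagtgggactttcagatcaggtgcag
Slco1a1: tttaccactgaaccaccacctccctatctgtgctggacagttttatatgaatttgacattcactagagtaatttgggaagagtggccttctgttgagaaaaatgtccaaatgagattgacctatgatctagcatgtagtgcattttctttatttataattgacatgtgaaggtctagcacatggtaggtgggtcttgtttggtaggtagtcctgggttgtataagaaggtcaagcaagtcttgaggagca
The motifs, searched on both strands, were the E-box CACGTG, the STAT5 site TTCNNNGAA, the antioxidant response element core TGACNNNGC and the HNF1 motif GTTAAT, none of which is contained in another. They occurred in 6.02%, 7.02%, 10.2% and 6.43% of 32851 windows of this length. Among the 13 members called lower that had a window, 1 held the E-box (Slc22a4), 2 the STAT5 site (Slco1b2 and Slc22a15), 0 the antioxidant core and 1 the HNF1 motif (Slco1b2). These matches describe the letters of the windows and nothing of binding.

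Of the 39 members, 19 passed the filter on low counts (6 Slco and 13 Slc22a). Of these, 15 were called lower in Vps15LKO liver, 3 were called higher (Slco3a1, Slc22a17 and Slc22a27) and Slc22a26 was not called. Slc22a17 passed the filter only through the Vps15LKO livers and Slc22a28 only through the WT livers, so these 2 had to differ to be tested. Among all 15430 tested genes, 66.5% were called, 33.0% lower and 33.5% higher. A change of at least 2-fold down was seen for 12 of the 19 members, beside 12.8% of all tested genes, and one of at least 2-fold up for 3 members, beside 21.0%. The median log2 fold change was -1.25 over the tested members and -0.02 over all tested genes. The WT and Vps15LKO livers did not overlap for 18 of the 19 members (15 lower and 3 higher), as for 73.2% of all tested genes (36.8% lower and 36.4% higher). Under total-read scaling 10 members were called lower, beside 11.1% of all tested genes, and 4 higher, beside 66.8%, and the medians were -0.54 for the members and 0.70 for all tested genes.

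**Figure D1:**
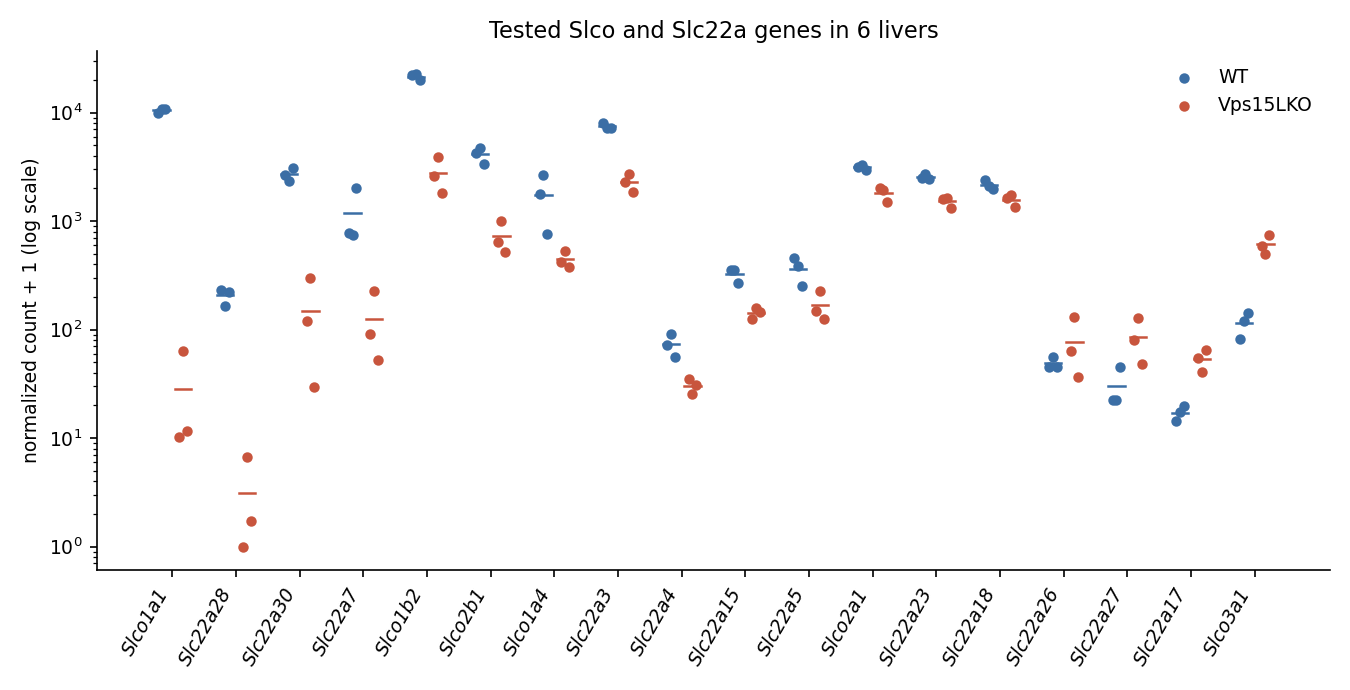
Normalized count + 1 (log axis) of 18 of the tested members in each WT and Vps15LKO liver, with the group mean as a line, ordered by log2 fold change. Slco1a1 stands between 9899.5 and 10759.8 normalized counts in WT livers and at 62.4 or below in Vps15LKO livers, and only Slc22a26 shows overlapping groups.

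Among the Oatp1 carriers, which take up bile acids, bile pigments and steroid conjugates, 3 of 6 genes were tested. All 3 were called lower, beside 33.0% of all tested genes. Slco1a1 (ENSMUSG00000041698, chromosome 6, 141907282 to 141946962), a growth-hormone-dependent carrier that is higher in male than in female mouse liver, had 9899.5, 10711 and 10759.8 normalized counts in WT livers. In Vps15LKO livers it had 9.16, 62.4 and 10.6, from 12, 77 and 15 reads. Every Vps15LKO liver stood far below every WT liver, and replicate 2 held most of the reads that were left. The log2 fold change was -9.06 ± 0.59 (SE, n = 3 per group, limma adjusted p = 5.4e-06), and it was -9.91 without Vps15LKO replicate 2.

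Slco1b2, the main bile acid and bilirubin carrier among mouse Oatps, had 22049, 22492 and 19886 normalized counts in WT against 2625, 3917 and 1808 in Vps15LKO livers. The groups did not overlap, and the fall was an 8.09-fold one (log2 fold change -3.02 ± 0.25, limma adjusted p = 1.6e-05). Slco1a4, a carrier of bile acids and cardiac glycosides, had 1794, 2667 and 762 normalized counts in WT against 422, 534 and 378 in Vps15LKO livers. WT replicate 3 was the lowest of the WT livers and still lay above all Vps15LKO livers (log2 fold change -1.80 ± 0.39, limma adjusted p = 0.0032). Within each liver, the log2 ratio of Slco1a1 to Slco1b2 per kb of exon was -1.25 to -0.98 in WT, but -8.11 to -6.05 in Vps15LKO, a measure in which the size factor cancels apart from the added count of 1. The same ratio for Slco1a4 was -5.08 to -3.46 in WT, but -3.25 to -2.63 in Vps15LKO. It was -2.83 to -2.53 against -2.29 to -2.07 for Slco2b1, and -4.26 to -4.20 against -2.47 to -1.74 for Slco2a1, the remaining Oatps called lower. Relative to Slco1b2, every Vps15LKO liver therefore had less Slco1a1, and more of the other 3 genes, than any WT liver. For each of the 6 ratios of this kind that were computed, the exact two-sided permutation p was 0.1 before and after Benjamini-Hochberg adjustment, the smallest that 3 livers against 3 allow.

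The other Oatp carriers were split. Slco2b1, a carrier of steroid sulfates, had 4271, 4690.4 and 3377 normalized counts in WT against 647, 999 and 519.8 in Vps15LKO livers (log2 fold change -2.55 ± 0.23, limma adjusted p = 2.4e-05). An antisense gene, Gm15635, shares 471 exon bases with it and held 26.9% to 30.6% of its count in every liver. With all reads of Gm15635 taken from Slco2b1, the log2 fold change was -2.56. So even a share had to leave the fold nearly unchanged, and the subtraction does not tell the reads of these genes apart. Slco2a1, the prostaglandin carrier, had 3159.7, 3285 and 2968 normalized counts in WT against 2011, 1936 and 1487 in Vps15LKO livers. Its groups did not overlap (log2 fold change -0.80 ± 0.13, limma adjusted p = 0.00057), but under total-read scaling the change was -0.08 and was not called.

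Slco3a1, a widely expressed Oatp, moved the other way, from 80.9, 119 and 142 normalized counts in WT to 593, 500.0 and 749.7 in Vps15LKO livers. The lowest Vps15LKO liver was above the highest WT liver, and the rise was 5.43-fold (log2 fold change 2.44 ± 0.22, limma adjusted p = 2.6e-05). Markers of other cell types were counted beside it, to be read against the 33.5% of all tested genes called higher and the 33.0% called lower. All 9 tested of 10 cholangiocyte and progenitor markers were called higher, and the list had sums of 1288 to 1464 normalized counts in WT against 12752 to 24373 in Vps15LKO livers. All 12 stellate cell and fibroblast markers were called higher, with sums of 7273 to 7717 in WT against 31343 to 37305 in Vps15LKO livers. Of 14 macrophage markers 11 were called higher and 1 lower, with sums of 8582 to 10034 in WT against 27216 to 31120.3 in Vps15LKO livers. Of the 13 endothelial markers 5 were called higher and 5 lower, near those shares, with sums of 8483 to 9110 in WT and 7023 to 8778 in Vps15LKO livers. Lymphocyte markers (5 of 7 tested called higher, of 10 listed, with 4 of the 7 tested only through the Vps15LKO livers) had sums of 115 to 146 in WT against 317 to 383 in Vps15LKO livers. Of 8 neutrophil markers 4 were tested, 3 of them only through the Vps15LKO livers, which largely fixes that all 4 were called higher, and the list had sums of 69.9 to 83.5 in WT against 457 to 523 in Vps15LKO livers. Among the cholangiocyte, stellate and macrophage markers 2, 1 and 1 also entered the test only through the Vps15LKO livers. The part of these cells in the rise of Slco3a1 or in any other member's change was not tested.

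Summed per kb of exon, the Slco genes stood at 7549 ± 531 normalized counts (SD, n = 3) in WT and 970.4 ± 275 in Vps15LKO livers, which is 7.78-fold lower. Slco1a1 made up 24.7%, 25.2% and 29.1% of this sum in WT but 0.187%, 0.936% and 0.280% in Vps15LKO livers. Slco1b2 made up 57.7% ± 1.14 (SD, n = 3) in WT and 57.1% ± 5.88 in Vps15LKO livers, whereas without division by length its share was 52.3% and 42.3%. Slco2a1 went from 3.07% ± 0.0606 to 14.2% ± 2.52, and Slco3a1 from 0.179% ± 0.0567 to 8.18% ± 3.87. Without division by length these went from 7.65% to 28.7% and from 0.280% to 10.2%.

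**Figure D2:**
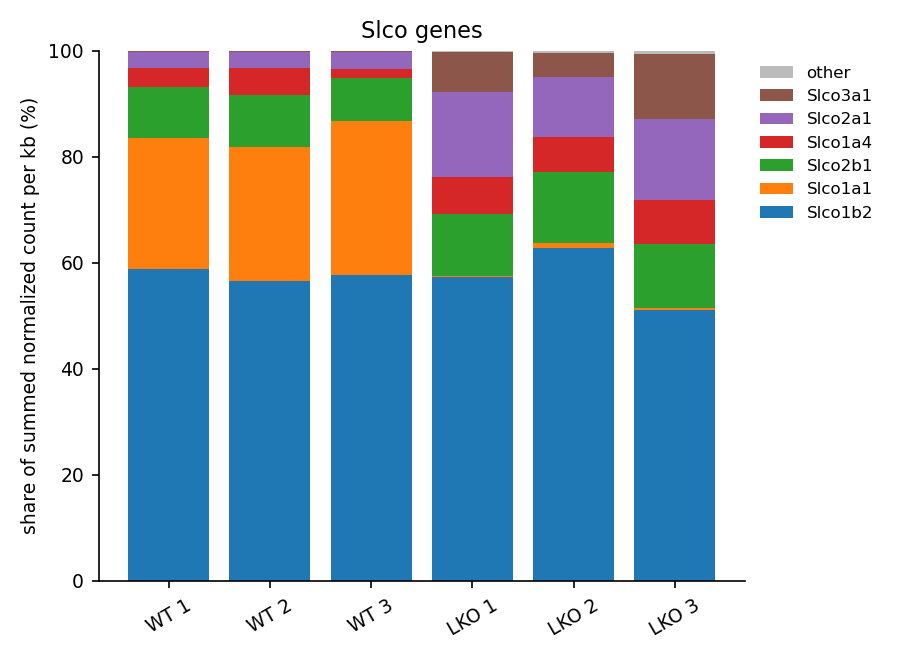
Share (%) of each member in the summed normalized count per kb of exon of its family, 1 bar per liver (LKO, Vps15LKO), for the Slco genes. The Slco1a1 share of 24.7% to 29.1% in WT livers is under 1% in each Vps15LKO liver, and the Slco2a1 and Slco3a1 shares are larger in each Vps15LKO liver than in any WT liver.

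Among the organic cation and carnitine carriers, 5 of 8 were tested and all 5 were called lower, beside 33.0% of all tested genes. Under total-read scaling 3 of them were called lower, beside 11.1%. Slc22a3 (Oct3) was listed at 8014, 7174 and 7178 normalized counts in WT against 2273, 2728 and 1869 in Vps15LKO livers (log2 fold change -1.72 ± 0.14, limma adjusted p = 1.8e-05). Its exons share 420 bases with those of Plg, the plasminogen gene on the opposite strand, which is 11.3% of the exon length of Plg. The count of Slc22a3 was 12.2% to 14.5% of the count of Plg in every liver, and Plg had a log2 fold change of -1.80. Whether the counting used strand is not given in the sources used here. In this table all 17 genes of over 150 exon bases that lie inside an exon of an opposite-strand gene of at least 2000 normalized counts in WT held reads, at a median of 18.2% of that gene, although with a wide range, from under 1% for 3 of them to 75.3%. With the shared bases and the strand setting not given, the reads of Slc22a3 cannot be told apart from those of Plg. Without it, 14 of 18 tested members were called lower, and it is left out of the sums below.

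**Figure D3:**
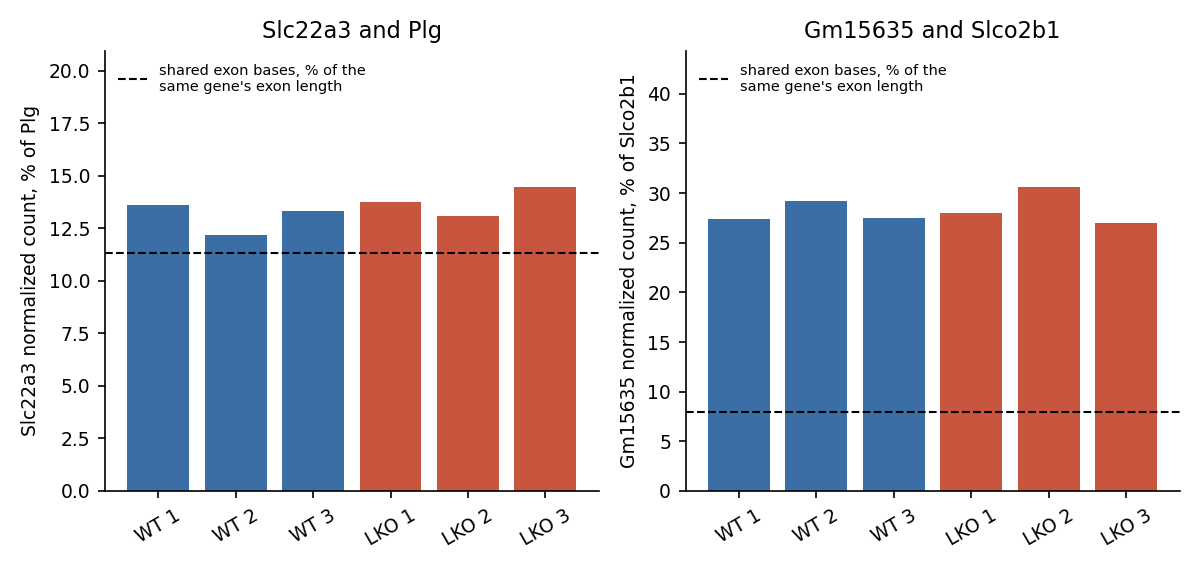
Normalized count of Slc22a3 as a percentage of Plg (left) and of the antisense gene Gm15635 as a percentage of Slco2b1 (right) in each liver (LKO, Vps15LKO), with the shared exon bases as a percentage of the exon length of Plg or Slco2b1 as a dashed line. The bars on the left lie between 12.2% and 14.5%, and those on the right between 26.9% and 30.6%, in livers whose absolute counts differ several fold.

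The carnitine carrier Slc22a5 (Octn2) had 452, 381 and 249 normalized counts in WT against 147, 227 and 124 in Vps15LKO livers. The highest Vps15LKO liver was close to the lowest WT liver (log2 fold change -1.12 ± 0.27, limma adjusted p = 0.0055). Slc22a4 (Octn1), known for taking up ergothioneine, had 71.6, 89.9 and 55.3 normalized counts in WT against 34.4, 24.3 and 29.7 in Vps15LKO livers (log2 fold change -1.25 ± 0.24, limma adjusted p = 0.0016). Under total-read scaling Slc22a5 was at -0.40 and Slc22a4 at -0.54, and neither was called. Slc22a15, a carrier of zwitterions, had 354, 349.7 and 268 normalized counts in WT against 125, 156 and 144 in Vps15LKO livers, and its log2 fold change of -1.18 ± 0.15 (limma adjusted p = 0.00015) was -0.46 and still called under that scaling. The third carnitine carrier of the cluster on chromosome 11, Slc22a21, shares 22.0% of its stretches of 50 bases with other members and had between 4 and 12 reads in a liver. Of 10 listed genes of carnitine synthesis and use outside these families, Tmlhe had no read. Among the 9 tested, 8 were called lower and 0 higher, beside 33.0% and 33.5% of all tested genes, with a median of -1.23. The largest falls were those of Bbox1, the last enzyme of carnitine synthesis (-1.87 ± 0.20), Aldh9a1, an earlier enzyme of it (-1.59 ± 0.14), and Cpt2, the inner mitochondrial carnitine acyltransferase (-1.40 ± 0.21). Under total-read scaling 5 of the 9 were called lower and 1 higher, beside 11.1% and 66.8% of all tested genes.

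Among the organic anion carriers, 5 of 13 were tested, of which 3 were called lower, 1 higher and 1 was not called. Of all tested genes 33.0% were called lower and 33.5% higher. Slc22a7 (Oat2), a carrier of nucleotides and small anions, had 772, 747 and 2017 normalized counts in WT against 89.3, 228 and 51.6 in Vps15LKO livers. WT replicate 3 stood apart from the other WT livers, and all WT livers were above all Vps15LKO livers (log2 fold change -3.36 ± 0.54, limma adjusted p = 0.00064).

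In the cluster of chromosome 19, neighbours went in opposite directions. Slc22a28 (chromosome 19, 8062209 to 8131982) had 231, 165 and 221 normalized counts in WT livers and 0, 7 and 1 reads in Vps15LKO livers, which are 0, 5.67 and 0.707 normalized counts. The log2 fold change was -6.51 ± 0.62 (limma adjusted p = 3.4e-05) and, at so few reads, depends on the added count of 1. All Vps15LKO livers were far below all WT livers. Without Vps15LKO replicate 2, which held most of these reads, it was -7.29. Slc22a30, whose promoter window above is nearly that of Slc22a28, had 2664, 2358 and 3108 normalized counts in WT against 118, 295 and 28.3 in Vps15LKO livers. Its Vps15LKO values spread over a wide range below all WT livers (log2 fold change -4.74 ± 0.68, limma adjusted p = 0.00032), with -5.51 without Vps15LKO replicate 2 and -3.84 without replicate 3.

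Slc22a27, between them and Slc22a26 in this cluster, had 21.2, 21.2 and 44.5 normalized counts in WT against 78.7, 127 and 46.7 in Vps15LKO livers. The groups came within a few counts of each other, and the rise was called (log2 fold change 1.48 ± 0.41, limma adjusted p = 0.011), although not under quantile normalization (0.85). Slc22a26 had 43.8, 55.0 and 44.5 normalized counts in WT against 62.6, 130.5 and 35.4 in Vps15LKO livers, with overlapping groups (log2 fold change 0.47 ± 0.41, limma adjusted p = 0.33), but it was called higher under total-read scaling (1.18). Within each liver, the log2 ratio of Slc22a30 to Slc22a27 per kb of exon was 5.45 to 6.26 in WT, but -1.35 to 0.56 in Vps15LKO. The exact permutation p was again 0.1. The messengers in this cluster are alike, with 53.9% of the stretches of 50 bases of Slc22a28 and 34.0% of those of Slc22a30 also present in other members, mostly each other, and 29.9% of those of Slc22a27 shared mostly with Slc22a29. The setting for reads that map to several genes is not given in the sources used here, so the division of reads within these pairs is uncertain.

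Of the orphan and other members, 3 of 4 were tested. Slc22a23, an orphan carrier, had 2503, 2727 and 2424 normalized counts in WT against 1589.9, 1643 and 1323 in Vps15LKO livers (log2 fold change -0.75 ± 0.11, limma adjusted p = 0.00034). Slc22a18, an imprinted gene, had 2413, 2107 and 1967 normalized counts in WT against 1617, 1739 and 1344 in Vps15LKO livers (log2 fold change -0.47 ± 0.12, limma adjusted p = 0.0095). These falls hinge on the scaling, since with total reads Slc22a23 was at -0.03 and Slc22a18 at 0.26, neither called (the latter at a fold under 1.2). Slc22a17, a receptor for the iron-binding protein lipocalin 2, rose from 13.3, 16.2 and 18.9 normalized counts in WT to 53.5, 39.7 and 63.7 in Vps15LKO livers (log2 fold change 1.62 ± 0.26, limma adjusted p = 0.00064). Even the lowest Vps15LKO liver was above the highest WT liver, but with every WT liver under 20 the gene was tested only because of its Vps15LKO values.

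**Figure D4:**
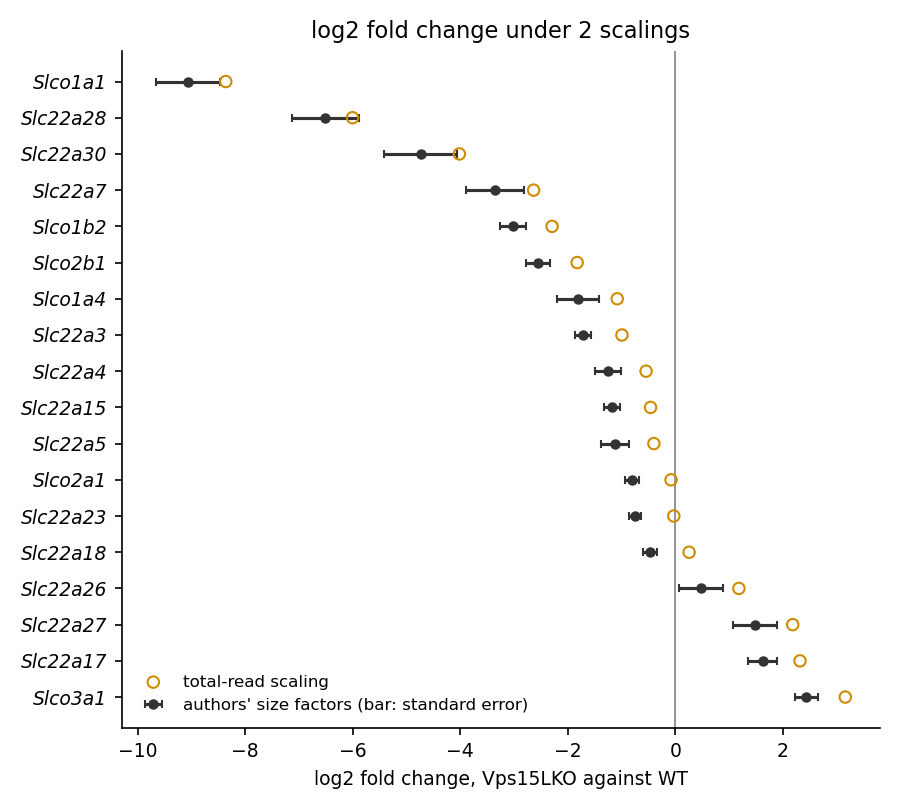
log2 fold change (Vps15LKO against WT) of 18 of the tested members with the authors' size factors (filled, bar: standard error) and with total-read scaling (open). The order of the members was kept while each value moved up, so that Slco2a1 (-0.08) and Slc22a23 (-0.03) come to lie near 0 and Slc22a18 (0.26) above it.

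The order of levels per kb of exon differed between the genotypes. In WT livers Slco1b2 stood at 4357 ± 283 normalized counts per kb (SD, n = 3), and Slco1a1 (1982 ± 91.6) was above Slc22a18 (1273 ± 134), Slc22a30 (805 ± 112), Slco2b1 (690.3 ± 113) and Slc22a7 (561 ± 346). The last 3 did not differ beyond the spread of Slc22a7. In Vps15LKO livers Slc22a18 (922 ± 119) was above Slco1b2 (565 ± 216), which was above Slc22a23 (238 ± 26.9), and Slco1a1 was at 5.19 ± 5.75. Summed per kb, the Slc22a genes without Slc22a3 stood at 6894 ± 191 normalized counts in WT against 2405 ± 652 in Vps15LKO livers, 2.87-fold lower. The share of Slc22a18 in this sum went from 18.5% ± 1.91 to 39.3% ± 5.65, and that of Slc22a30 from 11.7% ± 1.36 to 1.61% ± 1.18.

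The Vps15LKO livers differed among themselves in the members that fell. Of the 15 members called lower, 13 (86.7%) were highest in Vps15LKO replicate 2, as were 69.7% of all 5099 genes called lower, and 11 (73.3%) were lowest in replicate 3, as were 65.0% of those genes. The summed hepatocyte markers were highest in replicate 2 and lowest in replicate 3, with 1298270 in replicate 2, 1066920 in replicate 1 and 853564 in replicate 3, and the summed cholangiocyte and progenitor markers went the other way, with 12752, 16283 and 24373. These members share libraries and size factors, and whether the cell makeup of the livers bears on these differences was not tested.

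**Figure D5:**
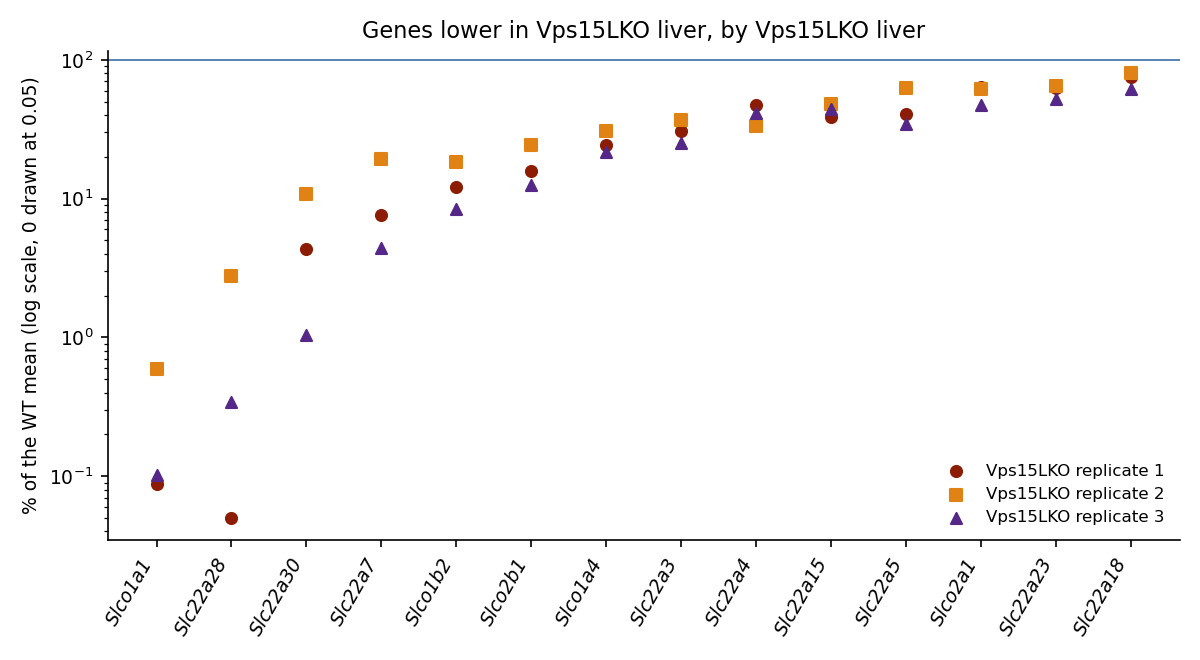
Level of 14 of the members called lower in each Vps15LKO liver as a percentage of the WT mean (log axis, a value of 0 drawn at 0.05). Vps15LKO replicate 2 (squares) is the highest for 12 of these members and replicate 3 (triangles) the lowest for 10.

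The other 20 members did not pass the filter, and none had more than 43 reads in any liver. Slc22a6, Slc22a16, Slc22a22, Slco6c1 and Slco6d1 had no read in any of the 6 livers, which allows up to 3 reads per library. The kidney carriers Slc22a8 (Oat3) and Slc22a13 had 1 read each in all. Of the 9 kidney tubule markers only Nphs1 was tested, through the Vps15LKO livers alone, and it was called higher, while Slc12a1 and Kap were among those at 0 in every liver and the list had sums of 39.97 to 48.5 normalized counts in WT against 40.5 to 48.8 in Vps15LKO. Slc22a19 had 43 reads in WT replicate 1, 2 and 1 in the other WT livers, and 0 in every Vps15LKO liver. Slc22a12 (Urat1), the urate carrier of the kidney, had 0, 0 and 1 reads in WT and 8, 14 and 13 in Vps15LKO livers, but 30.1% of its exon length is shared with Nrxn2 on the opposite strand, which had a log2 fold change of 2.02. Slco4a1 had 4, 7 and 2 reads in WT and 12, 16 and 19 in Vps15LKO livers. Slc22a29 had 5, 13 and 4 reads in WT and 18, 26 and 18 in Vps15LKO livers, libraries of like depth. Its normalized counts of 6.63, 16.2 and 5.39 in WT and 13.7, 21.1 and 12.7 in Vps15LKO livers overlapped. The remaining 9 members (Slco1a5, Slco1a6, Slco1c1, Slco4c1, Slco5a1, Slc22a2, Slc22a14, Slc22a20 and Slc22a21) had at most 12 reads in a liver. Of these, Slco1a5 had 4, 6 and 6 reads in WT and 2, 2 and 2 in Vps15LKO livers.

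Other genes of hepatocyte uptake and export were read beside the members. Of 24 carriers and adaptors listed with hepatocyte uptake outside both families, 18 were called lower and 3 higher, with a median log2 fold change of -1.61, beside 33.0% and 33.5% of all tested genes. Slc25a20, called lower, was also counted among the carnitine genes above. The deepest falls were Slc1a2, a glutamate carrier (-4.18 ± 0.25), Slc30a10, a manganese exporter that the list includes (-3.25 ± 0.46), and Slc10a1 (Ntcp), the sodium-dependent bile acid carrier (-3.24 ± 0.24), which lies close to Slco1b2 in size. Slc13a3, a dicarboxylate carrier (2.18 ± 0.17), and the nucleoside carriers Slc28a2 (1.73 ± 0.29, tested only through the Vps15LKO livers) and Slc29a2 (1.17 ± 0.27) rose. Of 16 export pumps and carriers, 8 were called lower and 6 higher, with a median of -0.31, beside 33.0% lower and 33.5% higher among all tested genes. Abcb11, the bile salt export pump (-2.40 ± 0.25), Abcc6 (-1.95 ± 0.21) and the sterol pump subunit Abcg8 (-1.51 ± 0.17) fell. Abcc4, which exports bile acids and cyclic nucleotides (4.74 ± 0.19), Abcc1, a pump for glutathione conjugates (3.14 ± 0.23), and Abcc5, a nucleotide pump (2.87 ± 0.11), rose. Under total-read scaling 17 uptake partners were called lower and 5 higher, and 3 exporters lower and 9 higher, beside 11.1% and 66.8% of all tested genes.

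Of 26 regulators known to act on carrier genes, 18 were called lower and 4 higher, with a median of -0.72, again beside 33.0% and 33.5% of all tested genes. Scaling to total reads gave 9 lower and 8 higher, beside 11.1% and 66.8%. Those that fell included Ghr, the growth hormone receptor (-2.998 ± 0.18), and Nr0b2, the bile-acid-induced repressor Shp (-2.22 ± 0.34). Those that rose included Cux2, a factor more abundant in female mouse liver (2.26 ± 0.34, tested only through the Vps15LKO livers), and Nfe2l2, the oxidative stress factor Nrf2 (0.63 ± 0.10). All values in these lists are from the same limma comparison, and whether a regulator acts on any member here was not tested.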

How the data were processed

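RNA-Seq of 3 WT and 3 Vps15LKO livers was used. After read filtering the authors used HISAT2 on GRCm38 and featureCounts, and deposited a signal, the read count of each gene divided by 1 DESeq2 size factor per library. Tool versions and the strand and multi-mapping settings are not given in the sources used here. Whole reads were recovered from 100% of the values in each library (tolerance 0.01 of a read). The study aimed at litters holding both genotypes but ties no replicate number to a litter, so number was not used as a block, and p-values measure the spread between these livers. Symbols, exon lengths and coordinates come from GENCODE M21, which matched 55227 of 56305 identifiers. Promoter windows were found for 34 of 39 members in RefSeq, and windows were aligned end to end for identity. Genes reaching 20 normalized counts in 3 or more livers (15430) were compared with limma 3.58.1 in R 4.3.3 on log2(normalized count + 1), with a trend and Benjamini-Hochberg adjustment over all of them. The procedure was run on simulated data with 200 changed genes among 14273, of which 195 were recovered with 17 false calls. That simulation had far fewer changed genes and the same variability for every gene, so it does not give the error rate in these livers. Tested members called, or averaging 100 normalized counts or more, are given by liver. Of each pathway list, up to 3 called genes per direction with the largest change were to be named. A few single genes are counted but not reported here. Members and lists were chosen with earlier results of these data known. The alternatives were other pseudocounts, filters, scalings and thresholds, edgeR 4.0.16, DESeq2 1.42.0 and voom on recovered reads, the replicate block and each liver left out. The counts without Slc22a3 and without the reads of Gm15635 were added after the data were seen.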

Additional observations from a re-analysis of the deposited data

How the results depend on the processing

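Over 21 alternatives, between 10 and 17 members were called lower and between 2 and 4 higher, and edgeR, DESeq2 and voom on recovered reads each called 15 and 3. The lowest count came from total-read scaling. Over all tested genes limma called 5099 lower and 5163 higher, edgeR 4822 and 5383, limma with total-read scaling 1712 and 10300, and limma at a fold of at least 2 called 1957 and 3228. Of 397 single-gene values, 382 kept their direction and side of the threshold, and 12 of the 18 called members did so under every alternative that tested them. Slc22a18 changed sign under total-read scaling (0.26). Slc22a26 changed sign under quantile normalization (-0.13) and without Vps15LKO replicate 2 (-0.011), and was called higher without Vps15LKO replicate 3 (0.92) and under total-read scaling (1.18). Without a filter 34 members were tested, 17 called lower and 4 higher, which added Slc22a19, Slco1a5 and Slc22a12. When every liver had to reach 20 normalized counts, 16 were tested, 13 called lower and 2 higher, and Slco1a1, Slc22a28 and Slc22a17 were not among those tested. Leaving out each liver in turn gave 15 lower and between 3 and 4 higher. Same-numbered livers did not deviate together (correlations of -0.01, -0.01 and 0.05, and not every liver correlated best with its own number), and with the replicate block 15 members were again called lower and 3 higher, and 4983 genes lower and 5065 higher in all. The Vps15LKO livers held between 0 and 77 reads of Slco1a1 or Slc22a28, which sets the precision of their folds.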
